A study of Homo sapiens with 6 samples.

Results

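The genes described here encode the nuclear subunits of mitochondrial complex I and the assembly factors named NDUFAF. Members were taken from the gene table by symbol: NDUFA, NDUFB, NDUFC, NDUFS, NDUFV or NDUFAF followed by a number, together with NDUFAB1. The rule used no measured value and found 46 of the 62700 genes listed. Of these, 37 encode complex I subunits, 8 encode NDUFAF assembly factors, and 1 is NDUFA4, a former complex I subunit that is now counted with complex IV. RNA was sequenced from PC3, an established human prostate cancer line, after knockdown of TTC3, which encodes an E3 ubiquitin ligase. A short hairpin RNA (shRNA) makes the cell degrade messenger RNA that matches it. A control shRNA was used for 3 libraries (genotype label WT) and one against TTC3 for the other 3 (genotype label TTC3 knockdown). All 6 were total RNA depleted of ribosomal RNA, from cells grown in F-12K medium with serum. The labels give neither the hairpin sequences nor the number of clones, and they do not say whether libraries of a group came from separate cultures. A p-value here therefore sets the groups apart against the variation between these particular libraries, which could be technical.

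Complex I (NADH:ubiquinone oxidoreductase) is the entry point of electrons from NADH into the respiratory chain. Its N module oxidises NADH, its Q module passes the electrons to ubiquinone, and its membrane arm, built from a proximal and a distal part, pumps protons across the inner mitochondrial membrane. Core subunits carry the chemistry and are shared with bacteria, accessory subunits surround them, and several hydrophobic core subunits of the membrane arm are encoded by mitochondrial DNA. Assembly factors build or modify the complex and are not part of the finished enzyme.

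The 6 libraries held 143246356 to 155526861 estimated counts. Levels are given as CPM, counts scaled to a common library size and composition, and changes as log2 fold changes of TTC3 shRNA over control shRNA with their standard error (SE). The targeted gene was lower in the libraries labelled as its knockdown: the 3 control libraries had a mean TTC3 level of 687 CPM (SD 7.86) and the 3 knockdown libraries one of 196 CPM (SD 27.5), a log2 change of −1.81 ± 0.10 (adjusted p = 5.65e-05). Library 1 of the TTC3 shRNA group stood apart from libraries 2 and 3. Per gene, the median squared difference was 27.1 and 34.0 times sampling noise between library 1 and libraries 2 and 3, against 7.37 between libraries 2 and 3 and 3.96 to 5.02 among the controls. KRT8, KRT18 and VIM were expressed, and KLK3, which PC3 cells are known to lack, had no counts in any library. Of the markers of other cell types, the fibroblast gene COL1A1 was at 19.0 CPM in control cells and at 43.5, 82.6 and 101 CPM in the TTC3 shRNA libraries, the endothelial gene PECAM1 fell from 4.99 to 3.00 CPM, COL1A2 stayed at or below 0.195 CPM, and DCN and PTPRC had too few counts to be tested. The part of other cells in the results was not tested. In RNA from whole cultures, fewer cells of a type and less RNA per cell cannot be told apart.

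Complex I genes were mostly higher after TTC3 knockdown. All 46 members passed the filter on low counts, and 31 rose, 1 (NDUFAF5) fell and 14 did not pass the test, where 15.7% of all 24325 tested genes rose and 17.8% fell (33.6% in all). The members' median log2 change was 0.45, against −0.02 over all tested genes, and single members ranged from −0.41 to 1.45. The groups did not overlap for 34 members that were higher and 1 that was lower in TTC3 shRNA cells, where this held for 23.3% and 27.0% of tested genes (50.3% in all). By size, 16 members rose by at least 1.5-fold, and NDUFB9 and NDUFAF8 rose by at least 2-fold. The shares of all tested genes that rose by at least 1.5-fold or 2-fold were not counted. Together the members summed to 1738, 1752 and 1766 CPM in the control libraries and 2191, 2735 and 2955 CPM in TTC3 shRNA libraries 1, 2 and 3, which is 1.25, 1.56 and 1.69 times the control mean. Without TTC3 shRNA library 1, 40 members rose and 2 fell (NDUFAF5 and NDUFV2), where 26.3% of genes rose and 27.8% fell. The count that rose was 11, 12 and 11 without control library 1, 2 or 3, where 7.33%, 7.45% and 7.45% of genes rose. It was 14 without TTC3 shRNA library 2 and 20 without library 3, where 8.65% and 10.8% of genes rose. When libraries were scaled by their totals alone, the median of all genes moved to −0.15 and the calls over all genes from 3827 higher and 4338 lower to 2518 higher and 5356 lower. The members then had a median of 0.31, with 22 higher, where 10.4% of genes rose. At an adjusted p below 0.01, 10 members rose, where 6.94% of genes rose. Of the 31 rises, 10 held in all 6 fits with 1 library left out, among them NDUFA6, NDUFA9, NDUFA10, NDUFB3, NDUFB5, NDUFB9 and NDUFS1, and the other rises were lost in at least 1 of these fits. The share of all tested genes that held in all 6 fits was not counted, so this 10 has no background beside it.

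**Figure D1:**
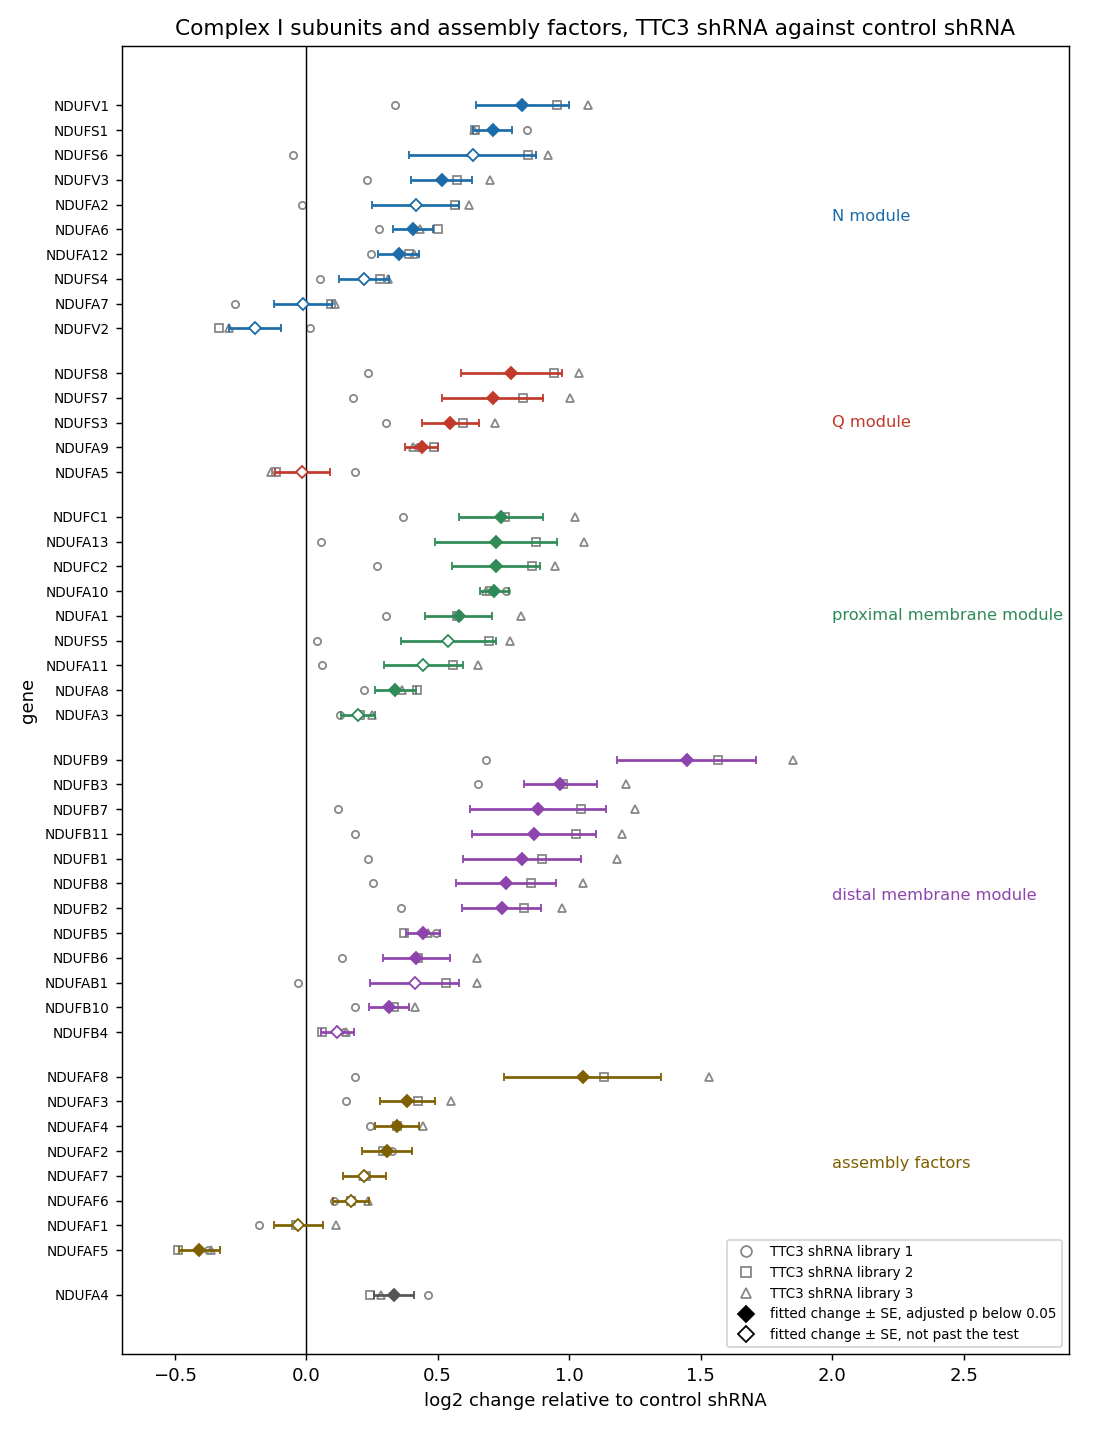
Log2 change of each complex I gene (x axis) by module (y axis, one row per gene; 1 member is not shown). Diamonds show the fitted change with its SE, filled where the adjusted p is below 0.05. Open circles, squares and triangles show TTC3 shRNA libraries 1, 2 and 3, each relative to the control mean. Most genes lie to the right of 0, NDUFB9 is highest at 1.45 and NDUFAF5 lowest at −0.41.

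Nuclear respiratory genes are known for promoters that bind NRF1, the ETS factor GABP, YY1 and the estrogen-related receptor ESRRA, and many members moved the same way, so their promoters were read for these motifs. The RefSeq promoter table (GRCh38.p14, 250 bases before to 50 after each start) held 39 of the 46 members in 51 windows, and each motif was searched as exact letters on both strands. The NRF1 motif GCGCATGCG was in 11.8% of member windows and 1.92% of all 35116 windows of that length. The YY1 motif AAGATGGCG was in 15.7% and 1.75%, the ETS motif CCGGAAG in 15.7% and 10.3%, and the ESRRA motif TCAAGGTCA in none of the members' windows and 0.353% of all windows. Counted by gene, 6 members held the NRF1 motif (15.4% of 39, against 3.78% of 13266 other tested genes) and 7 the YY1 motif (17.9% against 3.87%). The ETS motif was in 7 members, 17.9% against 19.7% of the other genes, so by gene its share was not above the background. Members with the NRF1 motif had a median log2 change of 0.23 (0.45 without it), those with the ETS motif 0.71 (0.41 without) and those with the YY1 motif 0.44 (0.43 without).

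The stretches below show a motif in capitals for 5 members and were chosen as matches that overlap no annotated exon of the members. Each lies before a RefSeq start, and that of NDUFS3 falls inside its longer GENCODE 29 gene model. NDUFB7, NDUFS3 and NDUFAF4 hold the ETS letters and NDUFS6 and NDUFB4 the NRF1 letters, so members of both kinds, with large and small changes, can be read side by side. Each is written 5′ to 3′ on the gene's own strand.
NDUFB7 (chr19:14572067-14572126, minus strand): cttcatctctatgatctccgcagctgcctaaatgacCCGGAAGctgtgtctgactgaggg
NDUFAF4 (chr6:96898005-96898064, minus strand): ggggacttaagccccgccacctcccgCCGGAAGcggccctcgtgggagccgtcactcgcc
NDUFS3 (chr11:47578946-47579005, plus strand): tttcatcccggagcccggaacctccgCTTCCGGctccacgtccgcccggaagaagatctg
NDUFB4 (chr3:120596152-120596211, plus strand): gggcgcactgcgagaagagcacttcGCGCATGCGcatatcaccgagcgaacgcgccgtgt
NDUFS6 (chr5:1801336-1801395, plus strand): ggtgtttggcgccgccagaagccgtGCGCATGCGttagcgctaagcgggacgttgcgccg
In NDUFS3 the capitals are the ETS motif on the opposite strand, and the same letters on the gene's strand stand further along in lower case. NDUFB7 rose by 0.88 ± 0.26 on the log2 scale (adjusted p = 0.0367), NDUFS3 by 0.55 ± 0.11 (adjusted p = 0.00862) and NDUFAF4 by 0.35 ± 0.08 (adjusted p = 0.0185), while NDUFS6 was at 0.63 ± 0.24 (adjusted p = 0.0831) and NDUFB4 at 0.12 ± 0.06 (adjusted p = 0.184) without passing the test. A match of letters is a description of the sequence and not a measured binding site.

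The N module, which takes electrons from NADH, had 5 of 10 members higher and 0 lower, with a median log2 change of 0.41. The share over all tested genes, for this and the following modules, was 15.7% higher and 17.8% lower. NDUFS1 encodes the largest subunit and carries iron-sulfur clusters (hg38 chromosome 2, 206114817 to 206159603). It was at 142, 140.4 and 141 CPM in control libraries 1, 2 and 3 and at 253, 220.1 and 219.7 CPM in the TTC3 shRNA libraries. The groups lay far apart and TTC3 shRNA library 1 was the highest, unlike for most members. NDUFS1 rose by 0.71 ± 0.07 (adjusted p = 0.000678). NDUFA6, a small accessory subunit of the LYR protein family, was at 30.0, 30.1 and 31.8 CPM in control and 37.1, 43.3 and 41.4 CPM in TTC3 shRNA libraries. All 3 knockdown libraries were above all 3 controls, and the rise was 0.41 ± 0.08 (adjusted p = 0.00760). NDUFV1, the subunit that binds FMN and NADH, rose by 0.82 ± 0.18 (adjusted p = 0.0122), and the accessory subunits NDUFV3 and NDUFA12 rose by 0.52 ± 0.12 (adjusted p = 0.0148) and 0.35 ± 0.08 (adjusted p = 0.0131). For NDUFA12 the call was lost by totals alone (0.22, adjusted p = 0.0515) and with the trend with transcript length removed, where it was at 0.02 (adjusted p = 0.879).

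The other 5 N module members did not pass the test. NDUFS6, NDUFA2 and NDUFS4, all accessory, had log2 changes of 0.63 (adjusted p = 0.0831), 0.42 (adjusted p = 0.0922) and 0.22 (adjusted p = 0.115). NDUFA7 was at −0.01 (adjusted p = 0.946). NDUFV2, a core subunit with an iron-sulfur cluster that works next to NDUFV1, was at 110, 108 and 108 CPM in control libraries and 110, 86.3 and 88.7 CPM in TTC3 shRNA libraries. Library 1 was level with the controls while libraries 2 and 3 were below them, and the change of −0.19 ± 0.10 did not pass the test (adjusted p = 0.168). Without library 1 NDUFV2 fell by 0.29 (adjusted p = 7.06e-05). NDUFV1 and NDUFV2, which sit together in the enzyme, thus had changes of 0.82 and −0.19, and the difference between them was not tested.

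The Q module, where ubiquinone is reduced, had 5 of 6 members higher and 0 lower, with a median of 0.53. NDUFA9, an accessory subunit related to short-chain dehydrogenases, was at 34.5, 33.4 and 36.5 CPM in control and 46.8, 48.7 and 46.1 CPM in TTC3 shRNA libraries. The 3 knockdown libraries lay close together above the controls, and the rise was 0.44 ± 0.06 (adjusted p = 0.00264). Among the core subunits of the module, NDUFS8 rose by 0.78 ± 0.19 (adjusted p = 0.0204), NDUFS7, which lies at the ubiquinone site, by 0.71 ± 0.19 (adjusted p = 0.0288), and NDUFS3 as given above. The accessory subunit NDUFA5 was at −0.01 (adjusted p = 0.932), with 38.2, 36.6 and 34.0 CPM in control and 41.3, 33.5 and 33.0 CPM in TTC3 shRNA libraries, so its groups overlapped.

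In the proximal membrane module, which joins the peripheral arm to the membrane arm, 6 of 9 members rose and 0 fell, with a median of 0.58. NDUFA10, an accessory subunit with a nucleoside kinase fold (hg38 chromosome 2, 239892450 to 240025402), had the smallest adjusted p of all members. It was at 58.5, 58.3 and 58.5 CPM in control and 99.1, 94.9 and 93.9 CPM in TTC3 shRNA libraries. Both groups were tight and far apart, with library 1 as high as the others, and the rise was 0.72 ± 0.06 (adjusted p = 0.000188). NDUFC1, a small membrane subunit, was at 9.33, 9.38 and 9.45 CPM in control and 12.1, 15.9 and 19.1 CPM in TTC3 shRNA libraries. Its knockdown libraries were spread, from library 1 as the lowest to library 3 as the highest, but all were above the controls. It rose by 0.74 ± 0.16 (adjusted p = 0.0121), a call that was lost without control library 1, 2 or 3 (adjusted p = 0.053, 0.052 and 0.051). NDUFA1, NDUFA8 and NDUFC2 rose by 0.58, 0.34 and 0.72 (adjusted p = 0.0133, 0.0159 and 0.0163). For NDUFA8 the call was lost by totals alone (0.21, adjusted p = 0.0688) and with the length trend removed (0.06, adjusted p = 0.538).

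NDUFA13, also known as GRIM-19, rose by 0.72 ± 0.23 (adjusted p = 0.0495) and was the 1 called member whose groups overlapped: library 1 of the knockdown, at 68.2 CPM, lay below the control library at 68.6 CPM. That call was lost when any library other than TTC3 shRNA library 1 was left out, by totals alone (adjusted p = 0.0692) and with the length trend removed (adjusted p = 0.0763). NDUFA3, NDUFS5 and NDUFA11 had changes of 0.20, 0.54 and 0.45 and narrowly missed the threshold (adjusted p = 0.0538, 0.0563 and 0.0590).

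The distal membrane module, the far end of the proton-pumping arm, had the highest median of the modules, 0.75, with 10 of 12 members higher and 0 lower. NDUFB9, a LYR protein that holds the acyl carrier protein NDUFAB1 in the complex, had the largest change of all members. It was at 87.8, 90.2 and 91.5 CPM in control and 144, 266 and 324 CPM in TTC3 shRNA libraries 1, 2 and 3. Every knockdown library was above every control, and the knockdown group was spread widely. The rise was 1.45 ± 0.26, or 2.73-fold (adjusted p = 0.00664), and it was 1.73 without library 1 and 1.21 without library 3. NDUFB3 was at 16.3, 16.9 and 15.7 CPM in control and 25.7, 32.1 and 37.9 CPM in TTC3 shRNA libraries. Its groups were well apart and it rose by 0.97 ± 0.14 (adjusted p = 0.00249). NDUFB5 was at 67.3, 63.7 and 62.0 CPM in control and 90.5, 83.3 and 88.8 CPM in TTC3 shRNA libraries. It differed from its neighbours in that library 1 was the highest of the knockdown group, and its rise was 0.44 ± 0.06 (adjusted p = 0.00258).

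Among the remaining accessory subunits of the distal module, NDUFB11, NDUFB1, NDUFB8 and NDUFB2 rose by 0.87, 0.82, 0.76 and 0.74 (adjusted p = 0.0284, 0.0289, 0.0208 and 0.00981). NDUFB6 and NDUFB10 rose by 0.42 and 0.31 (adjusted p = 0.0426 and 0.0190). Both calls were lost by totals alone (0.29 and 0.18, adjusted p = 0.0848 and 0.0701) and with the length trend removed, where NDUFB6 was at 0.20 (adjusted p = 0.0981) and NDUFB10 at 0.02 (adjusted p = 0.794). The calls of NDUFB1 and NDUFB7 were also lost with the length trend removed (0.35 and 0.46, adjusted p = 0.0514 and 0.0586). NDUFAB1, the mitochondrial acyl carrier protein, which also serves mitochondrial fatty acid synthesis, was at 0.41 and did not pass (adjusted p = 0.103). Its TTC3 shRNA library 1, at 11.3 CPM, lay within the controls at 11.2 to 11.8 CPM, and libraries 2 and 3 were at 16.7 and 18.1 CPM.

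The assembly factors had 4 of 8 members higher and 1 lower, where 15.7% of all tested genes rose and 17.8% fell. They also had the lowest median of the groups, 0.26. NDUFAF5, an enzyme that hydroxylates NDUFS7 during early assembly (hg38 chromosome 20, 13784950 to 13821582), was the 1 member that fell. It was at 13.6, 13.6 and 13.9 CPM in control and 10.6, 9.77 and 10.7 CPM in TTC3 shRNA libraries. All 3 knockdown libraries were below all 3 controls and close to each other. It fell by 0.41 ± 0.08 on the log2 scale (adjusted p = 0.00821), to 75.5% of the control level, and it fell past the threshold in every one of the 18 alternative settings. NDUFAF8, the partner protein of NDUFAF5, moved the other way and is given in full although its values were seen first. It was at 13.1, 13.2 and 14.1 CPM in control and 15.4, 29.6 and 39.0 CPM in TTC3 shRNA libraries. Library 1 was just above the controls and libraries 2 and 3 were far above them. NDUFAF8 rose by 1.05 ± 0.30 (adjusted p = 0.0334), a call lost without any one library other than TTC3 shRNA library 1 (adjusted p = 0.085 to 0.11).

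NDUFAF4, which binds the early Q module intermediate together with NDUFAF3, was at 12.7, 13.7 and 13.05 CPM in control and 15.6, 16.7 and 17.9 CPM in TTC3 shRNA libraries. The groups did not overlap, and its rise of 0.35 is the value given with its promoter. The call was lost without any 1 control library or TTC3 shRNA library 2 (adjusted p = 0.057 to 0.085) and with scaling by totals alone (0.22, adjusted p = 0.066). NDUFAF3 rose by 0.39 ± 0.11 (adjusted p = 0.0290), and NDUFAF2, which acts when the N module is added, by 0.31 ± 0.09 (adjusted p = 0.0431). By totals alone both calls were lost (0.25 and 0.18, adjusted p = 0.0651 and 0.218), and with the length trend removed NDUFAF2 was at 0.0072 (adjusted p = 0.974). NDUFAF7, a mitochondrial methyltransferase, and NDUFAF6 were at 0.22 and 0.17 with groups apart but without passing the test (adjusted p = 0.0773 and 0.0957). NDUFAF1, a member of the assembly complex for the membrane arm, was at −0.03 (adjusted p = 0.831).

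NDUFA4, now assigned to cytochrome c oxidase, was at 57.6, 57.9 and 60.9 CPM in control and 81.1, 69.7 and 71.6 CPM in TTC3 shRNA libraries. Library 1 was the highest and the groups did not overlap. NDUFA4 rose by 0.33 ± 0.08 (adjusted p = 0.0148), with the call lost without control library 1, 2 or 3 (adjusted p = 0.075, 0.073 and 0.052) and with scaling by totals alone (0.21, adjusted p = 0.13).

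**Figure D2:**
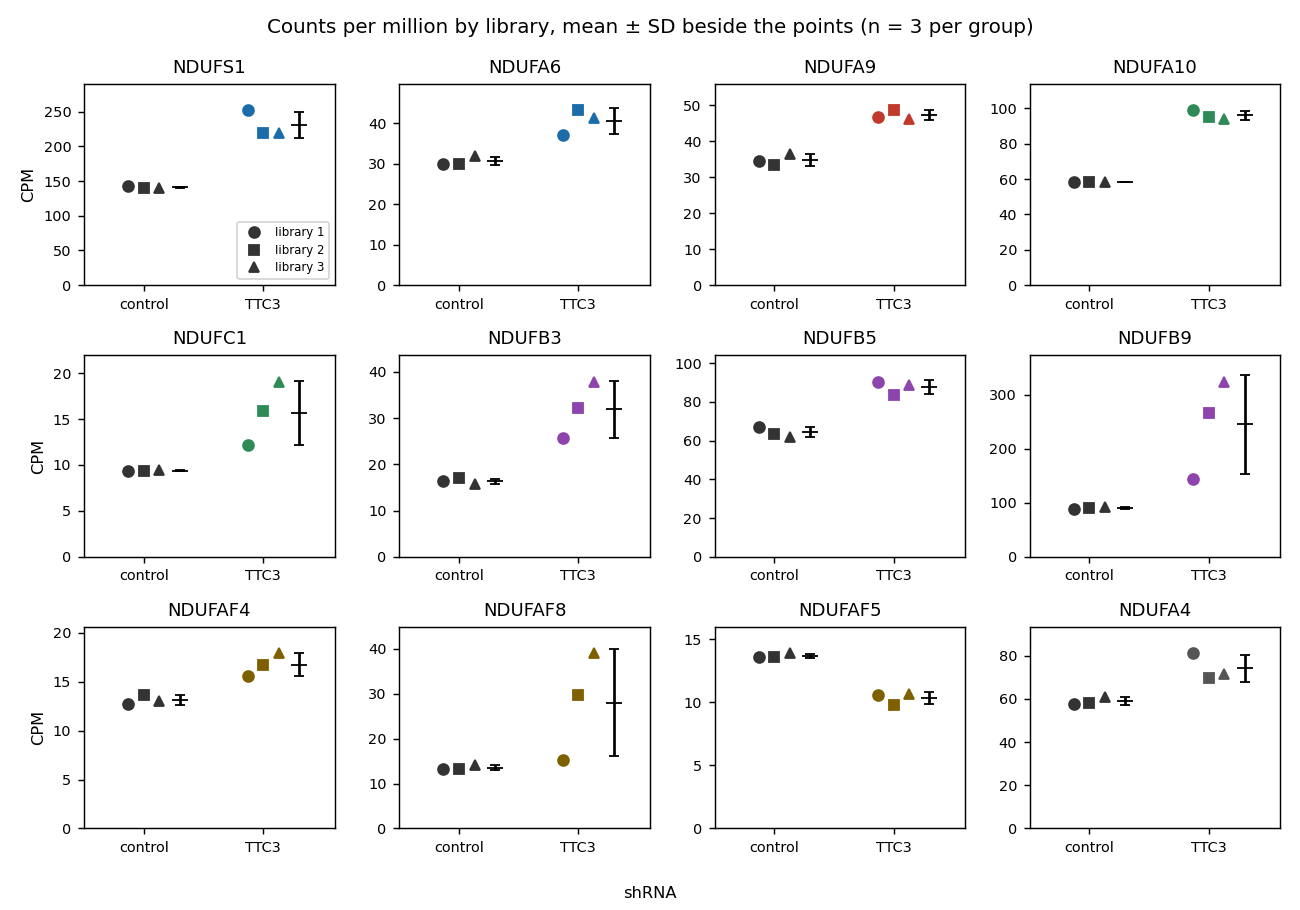
CPM (y axis, from 0) in each library for 12 complex I genes, with control libraries in black and TTC3 shRNA libraries in colour. Circles, squares and triangles are libraries 1, 2 and 3, and the bar beside them is the mean ± SD (n = 3). In all 12 panels the groups do not overlap, NDUFAF5 is lower in the knockdown libraries and NDUFB9 is spread from 144 to 324 CPM. Most of these genes were picked for a small adjusted p or an extreme change, so groups apart were likely from the choice. Of all 46 members the groups overlapped for 11, and they did not overlap for 50.3% of all tested genes.

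By class, 6 of the 7 nuclear core subunits rose, with a median of 0.71 and NDUFV2 as the exception. Of 30 accessory subunits 20 rose, with a median of 0.48. Over all tested genes 15.7% rose. The size of the rise depended on the library. The members' median was 0.22, 0.56 and 0.64 in TTC3 shRNA libraries 1, 2 and 3, where the median of all tested genes was −0.02, −0.04 and −0.05. Library 1 was the lowest of the 3 for 35 of the 46 members and library 3 the highest for 34. Library 1 was still above the control mean for 40 members, library 2 for 42 and library 3 for 43. The members' changes in libraries 2 and 3 were alike (r = 0.98 over 46 genes), and those of library 1 less so (r = 0.48 with library 2 and 0.41 with library 3). These are descriptions across genes that share the control mean and the libraries.

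The order of the modules also differed between libraries. In libraries 2 and 3 the distal membrane module was highest, at 0.84 and 1.01, and the assembly factors lowest, at 0.26 and 0.27. In library 1 the Q module was highest, at 0.27, and the N module lowest, at 0.14, with the distal module at 0.21 and the assembly factors at 0.17. From library 1 to library 3 the distal members gained a median of 0.65 and the proximal members 0.60, against 0.32 for the N module, 0.29 for the Q module and 0.17 for the assembly factors. The modules' counts that rose also changed with single libraries. Without TTC3 shRNA library 1 they were 8 of 10 for the N module, 5 of 6 for the Q module, 9 of 9 for the proximal module, 11 of 12 for the distal module and 6 of 8 for the assembly factors. With any other 1 library left out they were 2 to 5, 3, 1 to 5, 4 to 5 and 0 to 1, in the same order. Of all tested genes, 26.3% rose without TTC3 shRNA library 1 and 7.33% to 10.8% with any other 1 library left out. No test of a difference between modules was made.

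**Figure D3:**
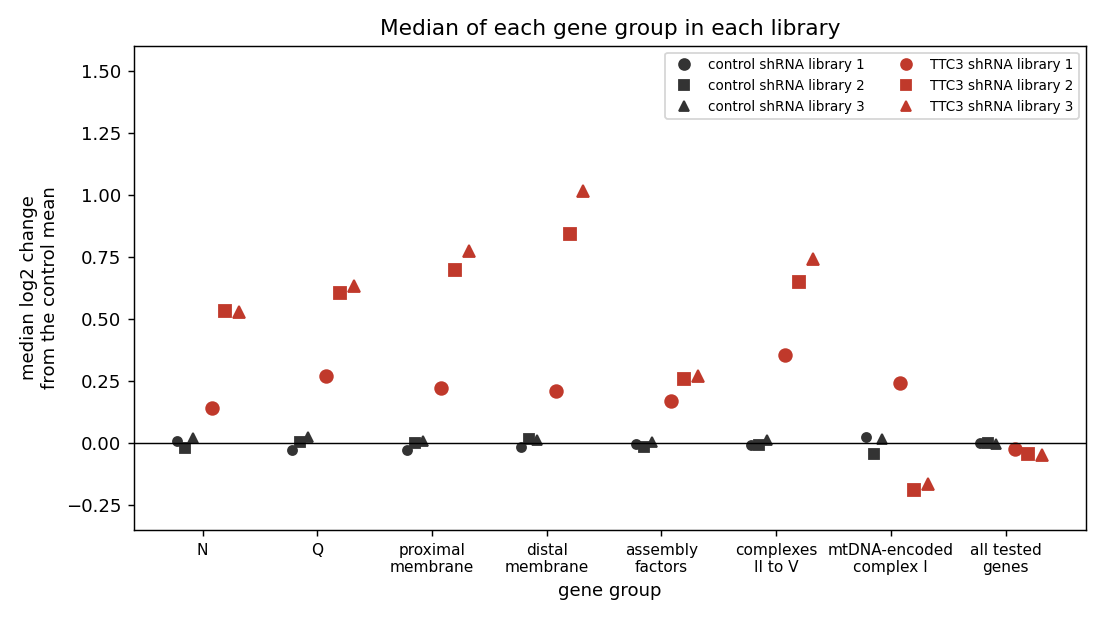
Median log2 change from the control mean (y axis) in each library, by gene group (x axis), with control libraries in black and TTC3 shRNA libraries in red. The nuclear complex I modules lie above 0 in all 3 knockdown libraries, the distal module reaches 1.01 in library 3, and the mitochondrially encoded genes go from 0.24 in library 1 to −0.19 in library 2.

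Transcript length moved with the change in this experiment. Member transcripts were 413.2 to 11090.2 bases long, and the distal membrane module was the shortest group, with a median of 728.7 bases, against 844 for the proximal module, 999.6 for the N module, 1822 for the Q module and 1972 for the assembly factors. Across 10733 other protein-coding genes the log2 change per doubling of length was −0.02 in TTC3 shRNA library 1, −0.17 in library 2 and −0.21 in library 3. Across the 46 members it was 0.06, −0.10 and −0.14 (Pearson r = 0.24, −0.25 and −0.31, a description across genes of the same libraries). The 23 members at or below 968.4 bases had a median change of 0.54, with 15 higher, and the 23 longer ones 0.44, with 16 higher and 1 lower. When each library's trend with length was removed, 23 members rose and 2 fell (NDUFAF5 and NDUFA7), where 15.7% of genes rose and 18.8% fell. With replicate numbers as a block as well, 19 rose, where 13.4% of genes rose. With the length trend removed and no block, the medians were 0.45 for the Q module, 0.38 for the distal module, 0.27 for the proximal module, 0.16 for the N module and 0.12 for the assembly factors, so the Q module was highest. In that fit NDUFA7 fell by 0.37 (adjusted p = 0.0050) and NDUFB9 rose by 1.09 (adjusted p = 0.00418).

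**Figure D4:**
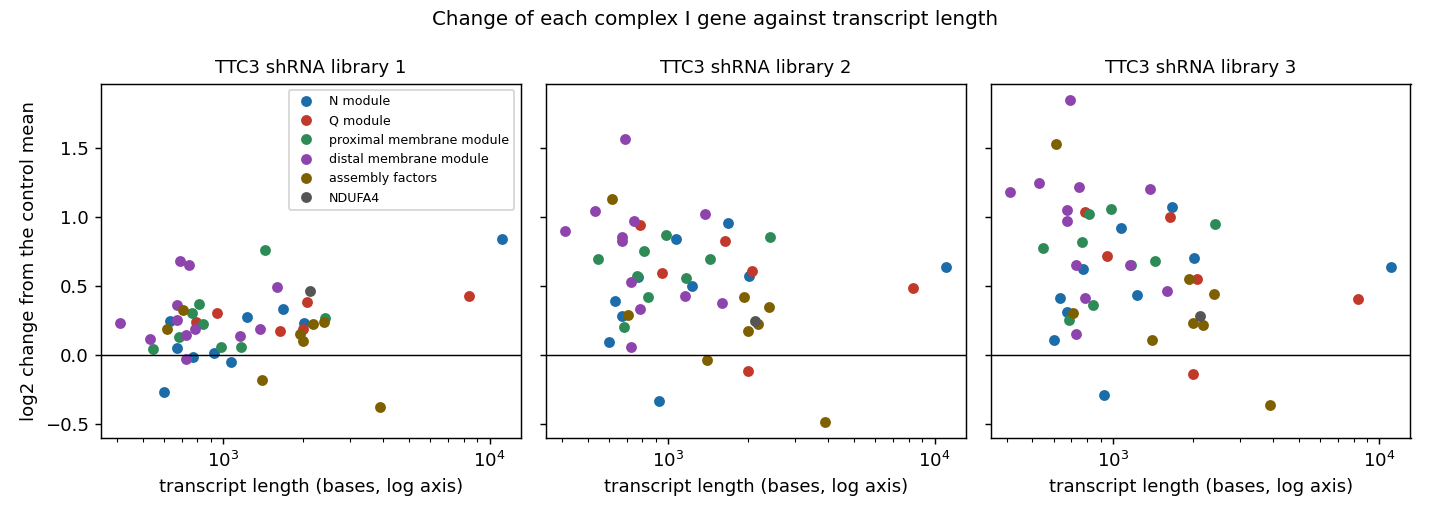
Log2 change from the control mean (y axis) of each of the 46 genes against its transcript length (x axis, log scale), in TTC3 shRNA libraries 1, 2 and 3, coloured by module. In libraries 2 and 3 short transcripts reach the highest values (r = −0.25 and −0.31), and in library 1 they do not (r = 0.24).

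Levels can be compared between genes only per length, and this was possible for 41 members. On the scale of CPM per kilobase of transcript, NDUFB9 was highest in control cells at 130.1, followed by NDUFV2 at 117, NDUFB7 at 96.4 and NDUFS8 at 86.7. Among the subunits NDUFA9 was lowest, at 4.18, a 31.2-fold range for proteins that are present in equal number in the enzyme apart from NDUFAB1. NDUFA9 had 34.8 CPM in control over a transcript length of 8341.1 bases, so this range rests on that annotated length. The 33 subunits had a median of 32.6 CPM per kilobase in control and 44.3 in TTC3 shRNA cells, and the 7 assembly factors 9.46 and 10.6. NDUFAF5, the member that fell, was also the lowest of all in both groups, at 3.53 and 2.67. The order of the members changed little with knockdown (Spearman rho = 0.97 over 41 genes, a description). At the top, NDUFB9 went to 355 and NDUFB7 to 178 CPM per kilobase, while NDUFV2, next to NDUFB9 in control cells, was at 102.

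The complex I genes of mitochondrial DNA showed no common direction. Of the 7 (MT-ND1 to MT-ND6 and MT-ND4L), which encode the membrane core subunits, MT-ND1 rose by 0.51 ± 0.12 (adjusted p = 0.0151) and 6 did not pass the test, with a median of −0.01. Of all tested genes, 15.7% rose. MT-ND1 was at 3478, 3307 and 3446 CPM in control and 5757, 4346 and 4436 CPM in TTC3 shRNA libraries. MT-ND2, MT-ND3, MT-ND4, MT-ND5, MT-ND6 and MT-ND4L had changes of −0.20, 0.18, −0.40, −0.43, −0.01 and 0.01. Their median was 0.24 in TTC3 shRNA library 1 but −0.19 and −0.17 in libraries 2 and 3, so library 1 was the highest here and the lowest for the nuclear members. Mitochondrial genes as a whole made up 6.29% of counts in that library and 3.73% and 3.54% in libraries 2 and 3, against 5.29% to 5.53% in controls. Without library 1, MT-ND5, MT-ND4, MT-ND2 and MT-ND6 fell, by 0.84, 0.71, 0.60 and 0.16 (adjusted p = 1.09e-05, 9.67e-06, 1.90e-05 and 0.00401). In the same fit MT-ND1 rose by 0.38 (adjusted p = 4.24e-05), and MT-ND3 and MT-ND4L did not pass the test. Of all tested genes, 26.3% rose and 27.8% fell in that fit. The call of MT-ND1 was lost without any 1 control library, with scaling by totals alone and with the length trend removed.

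The rest of the respiratory chain and the genes around it were counted for comparison. Of 38 nuclear subunits of complexes II to V, 29 rose and 1 (COX5A) fell, where 15.7% of all tested genes rose and 17.8% fell. Their median was 0.60, and in TTC3 shRNA libraries 1, 2 and 3 it was 0.35, 0.65 and 0.74. SDHD of succinate dehydrogenase went from 52.6 to 82.8 CPM (0.65 ± 0.06, adjusted p = 0.000504) and ATP5MC3 of the ATP synthase ring from 72.6 to 121 CPM (0.73 ± 0.07, adjusted p = 0.000538). With 1 library other than TTC3 shRNA library 1 left out, 19 to 25 of the 38 rose, where 7.33% to 10.8% of genes rose. Of 15 assembly factors without an NDUFAF name, 6 rose and 0 fell, with a median of 0.32, where 15.7% of all tested genes rose. DMAC2 rose by 0.50, AIFM1 by 0.40, ECSIT by 0.66 and FOXRED1 by 0.42 (adjusted p = 0.00135, 0.00307, 0.00638 and 0.00676). Of 8 tested regulators of nuclear respiratory genes, 4 rose and 0 fell, with a median of 0.20, where 15.7% of all tested genes rose. YY1 rose by 0.26, the orphan nuclear receptor ESRRA by 0.70, the coactivator PPRC1 by 0.27 and NRF1 by 0.22 (adjusted p = 0.0171, 0.0205, 0.0264 and 0.0310). GABPA, the ETS factor, was at 0.17 (adjusted p = 0.0718), and PPARGC1A had too few counts to be tested. With control library 1, 2 or 3 or TTC3 shRNA library 2 left out, none of the 8 regulators rose past the threshold. In these fits 7.33% to 8.65% of all tested genes rose.

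At the level of transcripts, the 46 genes had 146 matched transcripts, of which 136 were tested. Of these, 2 rose and 0 fell, where 1.39% of the 53805 tested transcripts rose and 2.60% fell (3.99% in all). An unadjusted p under 0.05 was reached by 47 of the 136, and by 21.2% of all tested transcripts. Their median log2 change of 0.45 was that of the genes. Both that rose belong to NDUFS1. Its main transcript ENST00000233190.11 was at 132 ± 0.23 CPM in control and 211 ± 17.7 CPM in TTC3 shRNA libraries (SD, n = 3), a rise of 0.68 ± 0.08 (edgeR adjusted p = 0.0173). The groups did not overlap. A rare coding transcript of NDUFS1, ENST00000457011.5, was at 0.0513 CPM in control and 0.316 CPM in TTC3 shRNA cells (adjusted p = 0.0234). Neither call held with replicate numbers as a block, where 0 member transcripts passed. DESeq2 called 39 member transcripts, where it called 17.0% of all tested transcripts.

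Some members share sequence with other genes, and the sources do not say how shared reads were assigned. In GENCODE 29, 29 of the 46 members overlap another gene model, 18 with one on the same strand and 25 with one on the opposite strand. NDUFC2 shares exons with the readthrough gene NDUFC2-KCTD14, which rose from 6.52 to 18.3 CPM (1.49 ± 0.30, adjusted p = 0.00983), so the value of NDUFC2 is uncertain. Of 69 pseudogenes, readthrough genes and other genes named after members, 12 were tested, and 1 rose and 1 (NDUFB4P11, a pseudogene of NDUFB4) fell. Over all tested genes 15.7% rose and 17.8% fell. NDUFB4P11 rested on few counts, 22, 46 and 32 in the control libraries and 0 in each TTC3 shRNA library. The other 10 of the 12 did not pass the test, among them NDUFA4L2, a paralog of NDUFA4, at 0.453 CPM in control and 0.515 CPM in TTC3 shRNA cells.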

How the data were processed

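RNA-seq of 6 libraries was analysed from the deposited tables of estimated counts per gene and per transcript, which hold whole numbers. The authors used the hg38 build with STAR, StringTie and Trim Galore, per the submitters' processing notes. Versions, annotation and strand setting were not given in the sources used here. Library titles gave groups and numbers. The members and the gene lists were chosen with earlier results of these data known.

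Estimated counts were tested with edgeR 4.0.16 (R 4.3.3): filterByExpr (about 10 counts in a group, 15 in total; 24325 genes and 53805 transcripts left), TMM factors, a quasi-likelihood fit over 6 libraries without a block, and Benjamini-Hochberg adjusted p below 0.05 over all features. The SE is the log2 change divided by the square root of F. "Rose" and "fell" are used for changes past that threshold. Positions, overlaps and transcript lengths, weighted by counts, came from GENCODE 29, which held 58207 of 62700 genes and 98286 of 117688 transcripts. Levels per kilobase were left out for 5 members whose matched transcripts held under 80% of the count, and their lengths are uncertain. The procedure was tested on simulated data.

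By rule, values in every library were given for the 2 members with the smallest adjusted p in each module, members that fell, and those with the highest and lowest change. NDUFAF8, NDUFV2, NDUFA5 and NDUFAB1 were added after their values were seen. A few results under the rule were left unreported. Alternatives were DESeq2 (1.42.0) size factors and test, scaling by totals or without mitochondrial genes and the 20 highest, limma-voom (limma 3.58.1), no filter, at least 50 counts in 3 libraries, adjusted p below 0.01, a replicate block, protein-coding genes alone, each library left out, and removal of each library's trend with length (lowess, span 0.5, over non-member genes of at least 5 CPM).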

Additional observations from a re-analysis of the deposited data

How the results depend on the processing

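The count of 31 members higher was 22 to 39 under DESeq2, both other scalings, limma-voom, both other filters, protein-coding genes alone, the length trend removed and the replicate block. In these settings 7.82% to 22.5% of tested genes rose, and the 39 came from the DESeq2 test, where 19.8% rose. The members' count was 10 at an adjusted p below 0.01 (6.94% of all genes rose), 19 with the length trend removed and a replicate block (13.4%), and 11 to 40 with 1 library left out (7.33% to 26.3%). The count lower (1) was 2 with the length trend removed, with or without the block, and 1 to 2 with 1 library left out. Of the 18 alternatives, all called 10 members, among them NDUFA10, NDUFB9, NDUFS1 and NDUFAF5, and none called NDUFA5, NDUFAF1 or NDUFB4. The share of all tested genes called in all 18 was not counted. With the length trend removed the medians of the N module, proximal module and assembly factors moved to 0.16, 0.27 and 0.12, and with the block to 0.16, 0.27 and 0.13; by totals alone that of the assembly factors was 0.14, and without 1 library 0.20 to 0.30. The distal module had the highest median in 15 of 17 alternatives and the assembly factors the lowest in 17. Member transcripts called (2) were 39 by DESeq2 (17.0% of all transcripts called), 0 with the replicate block and 0 to 30 with 1 library left out. Shares over all transcripts were not counted with the block or with 1 library left out. The sign turned only in members that had not passed the test. With the length trend removed, alone and with the block, NDUFA3 was at −0.12 and −0.12, NDUFB4 at −0.17 and −0.18, and NDUFS4 at −0.10 and −0.10; NDUFB4 was at −0.0086 by totals alone. With 1 library left out, values ran from −0.11 to 0.0536 for NDUFA5, from −0.0648 to 0.12 for NDUFA7 and from −0.10 to 0.0564 for NDUFAF1. Deviations from the group mean in same-numbered libraries of the groups had r = 0.05, 0.04 and −0.01, against −0.05 to 0.02 for differently numbered ones. Such values cannot show whether same-numbered libraries were made together. The replicate block gave 31 members higher and 1 lower. The spread between libraries, 3 in each group, limits precision more than counting error does, since the lowest subunit, NDUFB1, was at 5.60 CPM in control library 1 and no library held under 143246356 counts.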
